A study of Mus musculus with 12 samples.

Results

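The quantity described here is the difference in immune complex response between 2 drug arms, taken gene by gene across all 12 libraries of the series. For each gene, the log2 fold change of immune-complexed ovalbumin (IC) over ovalbumin alone (Ova) in the solvent arm (DMSO) was subtracted from the same fold change in the I-BET151 (iBET) arm. A negative value means that the fitted fold change was lower in iBET than in DMSO, and a positive value means that it was higher. The difference was estimated for 11468 of 24421 genes, which passed a filter on low counts. Cells were bone marrow-derived macrophages (BMDMs) of wild-type C57BL/6 mice grown with murine M-CSF (100 ng/mL), a macrophage growth factor, over 5 days, and given new medium on day 3. They received iBET at 5.0 µM or 5% DMSO, and ovalbumin or its complex with rabbit IgG, for 4 hours. The study's methods have the iBET stock in DMSO and give 5% DMSO only for dosing of mice. The percentage in culture is thus uncertain. The labels have the cells sorted into lysis buffer, with no gate given, whereas the study's methods have them lysed in culture. The 4 groups were DMSO Ova, DMSO IC, iBET Ova and iBET IC, with 3 libraries each, and mice A, B and C gave 1 library to every group. Whether drug and stimulus went on at once, as in the labels, or the drug went on earlier, as in the study's methods, is uncertain.

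IgG immune complexes bind Fc gamma receptors on macrophages. Activating receptors signal through an ITAM-bearing adaptor and the kinase Syk, which leads to activation of NF-kB, MAP kinases and AP-1 and to transcription of cytokine, chemokine and feedback genes. BET proteins read acetylated histones and help recruit the machinery for transcriptional elongation, and I-BET151 is a small molecule that occupies their bromodomains. The comparison asks, for each gene, whether the response to IC differed in size when BET proteins were inhibited, a question separate from whether the gene's level differed between drug arms.

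Total counts per library ranged from 7549849 to 17387639. The DMSO Ova library of mouse A stood apart, with 77.4% of its counts on the ribosomal precursor Rn45s against 1.41% to 7.83% in the other libraries. Its counts on all other genes together were the fewest of the 12 libraries. All 10 macrophage markers were measured in every library, and their levels, in CPM (counts relative to the TMM-scaled library size), summed to 6711 to 9027. The 9 neutrophil and granulocyte precursor markers in the table summed to 15.4 to 54.8 CPM with overlapping ranges in the 4 groups, and the dendritic cell list to at most 1.65 CPM. Lymphocyte, stromal, and erythroid and mast cell markers did not pass the filter, and Nkg7, Lum and 6 of the 7 erythroid and mast cell markers were at 0 counts in every library. The markers tested were 10 of macrophages, 5 of neutrophils and granulocyte precursors and 1 of dendritic cells. None had an unadjusted p under 0.05 for the difference. Only 2.55% of all genes tested had such a p, so none among so few markers says nothing of cell composition. In bulk RNA, fewer cells of a type and less RNA per cell cannot be told apart.

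No gene passed an adjusted p of 0.05 for the difference in edgeR's quasi-likelihood test (0% of genes tested), and the smallest adjusted p was 0.388, for Rbm12b1. At an unadjusted p under 0.05 there were 292 genes (2.55%), split into 144 negative (1.26%) and 148 positive (1.29%). The median difference over all genes was -0.00071, with 5743 genes negative and 5725 positive. DESeq2, the tool of the study, called 4 genes (Rbm12b1, Jdp2, Il1rn and Acsl1), and 7 with mouse as a block (Jag1, Tnfaip2 and D17H6S56E-5 in addition), whereas limma voom called none. The edgeR fit with mouse as a block also called none and had 443 genes at an unadjusted p under 0.05.

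The IC response itself was called, at an adjusted edgeR p under 0.05, for 140 genes in DMSO (1.22% of genes tested) and for 40 in iBET (0.349%). These counts do not say that the arms differed, because the test of the difference called nothing. Precision was close in the arms, with a median standard error (SE) of 0.184 log2 units in DMSO and 0.179 in iBET. The difference carries both errors, and the median half-width of its 95% interval was 0.558 log2 units. With mouse as a block the edgeR counts were 315 in DMSO and 85 in iBET. DMSO also had more in DESeq2 (268 against 103 in iBET), while limma voom gave 266 and 243. Without mouse A the order turned round, with 159 in DMSO and 305 in iBET. Averaged over the arms, the response was called higher for 196 genes (1.71%) and lower for 142 (1.24%). With the block these were 352 higher of 658 in all. The 338 genes of the fit without the block are named IC-responsive from here on. Choosing them by the mean weighted both arms equally, a balance that is only approximate where the arms differ in precision.

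**Figure D1:**
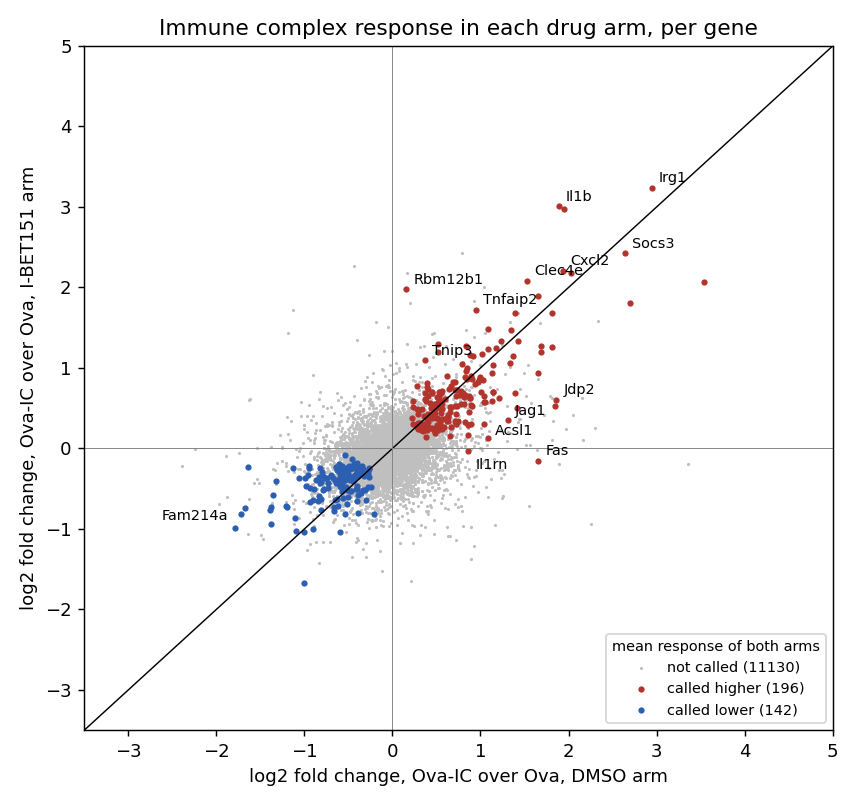
Each point is a gene, placed by its log2 fold change of Ova-IC over Ova in the DMSO arm (x axis) and in the iBET arm (y axis), and the line marks equal responses. Red and blue points are the 196 and 142 genes called higher and lower for the mean response, and 4 genes lie outside the axes. Jdp2, Jag1, Acsl1, Il1rn and Fas sit to the right of the line, and Rbm12b1, Tnip3 and Tnfaip2 above it, while Irg1, Socs3 and Cxcl2 lie near it.

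Genes were ranked by p among those whose counts averaged 50 or more and whose difference had 1 sign in all 3 mice. The first 8 on the negative side were Jdp2, Il1rn, Acsl1, Polr3g, Jag1, Adgrl2, Errfi1 and Rapgef2. In all 8 the IC libraries were above the Ova libraries in DMSO without overlap, and 7 rose in DMSO at an adjusted edgeR p under 0.05 (the exception was Rapgef2, adjusted p = 0.0959). None was called in iBET. Over all genes tested, 1.22% were called in DMSO and 0.349% in iBET, in either direction, and the count without overlap was not taken. The fitted differences ranged from -0.68 to -1.26 log2 units. Because the ranking used the difference itself, these counts and the values that follow are descriptions. They carry no evidence beyond the adjusted p over all genes.

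Jdp2 (Jun dimerization protein 2, a repressor of AP-1, chr12:85599027-85639878, plus strand) had the most negative difference of the 8. In DMSO its level was 15.9, 11.7 and 14.8 CPM with Ova in mice A, B and C and 60.5, 48.2 and 41.9 CPM with IC. In iBET the levels were 15.7, 16.4 and 18.7 CPM with Ova and 26.8, 26.7 and 23.6 CPM with IC. The Ova groups of the arms overlapped, IC was above Ova in each arm without overlap, and every iBET IC library was below every DMSO IC library. The response was 1.86 ± 0.17 (SE) log2 units in DMSO and 0.61 ± 0.16 in iBET, a difference of -1.26 (95% interval -1.75 to -0.77, unadjusted p = 0.000112, adjusted p = 0.642 in edgeR and 0.0112 in DESeq2). Per mouse the difference was -1.15, -1.33 and -1.16 in mice A, B and C.

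Il1rn, which encodes the secreted interleukin-1 receptor antagonist (chr2:24336853-24351494, plus strand), rose in DMSO, and its Ova and IC groups overlapped in iBET. Its level in DMSO was 152, 155 and 135 CPM with Ova and 318, 242 and 239.7 CPM with IC. In iBET it was 143, 125 and 132 CPM with Ova and 141, 115 and 134 CPM with IC. Only the DMSO IC group stood clear of the other 3 groups. The difference was -0.89 log2 units (95% interval -1.28 to -0.50), with -1.08, -0.76 and -0.81 in mice A, B and C. The adjusted p was 0.701 in edgeR and 0.0358 in DESeq2.

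Acsl1, a long-chain acyl-CoA synthetase (chr8:46471037-46536051, plus strand), had Ova levels of 46.7, 73.8 and 66.8 CPM in DMSO and 94.1, 90.4 and 82.8 CPM in iBET. With IC it stood at 124, 144 and 134 CPM in DMSO and 101, 96.3 and 94.4 CPM in iBET. The iBET arm was thus above the DMSO arm with Ova and below it with IC, without overlap in either case. The fitted difference was -0.95 log2 units (95% interval -1.37 to -0.53), and -0.78 with the DMSO Ova library of mouse A, the lowest Ova value, left out. DESeq2 gave an adjusted p of 0.0358 and edgeR 0.701.

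Jag1, a ligand of Notch receptors (chr2:137081456-137116644, minus strand), had overlapping Ova levels in the arms, 112, 117 and 102 CPM in DMSO and 134, 141 and 99.5 CPM in iBET. IC libraries held 248, 306 and 269 CPM in DMSO and 160.2, 186 and 132 CPM in iBET, where every iBET value was below every DMSO value. Each mouse was higher with IC in both arms, although the iBET groups overlapped. The difference was -0.96 log2 units (95% interval -1.43 to -0.49) and varied little between mice, with -0.88, -0.99 and -0.99 in mice A, B and C. Its adjusted p was 0.997 in edgeR and 0.195 in DESeq2, and with mouse as a block 0.221 and 0.000457. The study had singled out this gene on these libraries, so it is not independent evidence.

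The other 4 genes had smaller differences. Polr3g, a subunit of RNA polymerase III, stood higher with IC in DMSO (16.9, 16.7 and 16.2 CPM with Ova, 29.5, 23 and 23.4 CPM with IC) and lower with IC in iBET (24.2, 23.7 and 24.3 CPM with Ova, 21.7, 21.4 and 20.6 CPM with IC), with no overlap in either arm. Its difference was -0.79 (95% interval -1.16 to -0.42). Adgrl2, an adhesion G protein-coupled receptor, had a response of 0.86 ± 0.12 in DMSO and 0.16 ± 0.12 in iBET. For Errfi1, a feedback inhibitor of the epidermal growth factor receptor, the responses were 1.03 ± 0.13 and 0.31 ± 0.13, and its IC levels overlapped between arms (34.7, 43.5 and 45.4 CPM in DMSO, 40.7, 43.4 and 33 CPM in iBET), with Ova levels higher in iBET. Rapgef2, an exchange factor for Rap, had responses of 0.54 ± 0.14 and -0.15 ± 0.13. Across the 8 genes the Ova level was higher in iBET without overlap in 4 and overlapped in 4. The IC level was lower in iBET without overlap in 6. The ranking partly sets these counts, and the same counts were not taken over all genes.

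Fas, the death receptor gene, had a more negative difference than any of these, at a mean count under 50. It held 1.54, 1.3 and 1.41 CPM with Ova and 4.63, 3.63 and 4.77 CPM with IC in DMSO, and 2.86, 2.98 and 3.05 and 2.99, 1.84 and 3.12 CPM in iBET. IC was above Ova without overlap in DMSO, and the iBET groups overlapped. The difference was -1.80 log2 units (95% interval -2.59 to -1.02, edgeR adjusted p = 0.701), with -1.42, -1.997 and -1.60 in mice A, B and C.

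On the positive side the 8 genes were Rbm12b1, Tnip3, Tnfaip2, Lifr, Susd3, Klhl24, Tlr4 and Socs5. They fall into different patterns. Lifr, Susd3, Klhl24 and Tlr4 fell in DMSO at an adjusted edgeR p under 0.05, and none of these 4 was called in iBET. Rbm12b1, Tnip3 and Tnfaip2 were called higher in iBET, and of these only Tnfaip2 was also called in DMSO. In DMSO the IC libraries of Tnip3 were above its Ova libraries without overlap, although the gene was not called there. Socs5, a suppressor of cytokine signalling, was called in neither arm, with -0.29 ± 0.11 in DMSO and 0.28 ± 0.11 in iBET.

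Rbm12b1, an RNA-binding motif gene (chr4:12140264-12146731, plus strand), had the smallest p of all genes tested. In DMSO it was at 33.4, 40.2 and 40.2 CPM with Ova and 45.9, 44.6 and 37.8 CPM with IC, and the groups overlapped. In iBET it was at 7.49, 7.72 and 6.77 CPM with Ova and 30.2, 19 and 37.5 CPM with IC. The iBET Ova group was the lowest of the 4, and the iBET IC libraries spread widely and stayed below every DMSO IC library. The difference was 1.82 log2 units (95% interval 1.19 to 2.44, unadjusted p = 3.38e-05, adjusted p = 0.388 in edgeR and 0.000235 in DESeq2), with 1.53, 1.13 and 2.52 in mice A, B and C. Reads of Rbm12b1 may be shared with its close paralog Rbm12b2, for which the difference was 0.29 (95% interval -0.10 to 0.69), so its value is uncertain.

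Tnip3, which encodes an A20-binding inhibitor of NF-kB (chr6:65525313-65634040, plus strand), was lower in iBET in both conditions. Its DMSO levels were 273, 234 and 239 CPM with Ova and 365, 309 and 287 CPM with IC. Its iBET levels were 97.2, 103 and 117 CPM with Ova and 228, 240.0 and 211 CPM with IC. IC was above Ova without overlap in each arm, and no iBET IC library reached a DMSO IC library. The fold change was 0.37 ± 0.12 in DMSO and 1.10 ± 0.12 in iBET, a difference of 0.73 (95% interval 0.37 to 1.09, edgeR adjusted p = 0.997). A higher fold change in iBET thus went with a lower level.

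Tnfaip2, a gene known for induction by tumour necrosis factor (chr12:111442469-111455018, plus strand), differed in pattern. Ova levels overlapped between the arms, at 82.7, 87.3 and 93.1 CPM in DMSO and 94.1, 93.1 and 109 CPM in iBET. IC levels were 142, 195 and 171 CPM in DMSO and 304, 365 and 308 CPM in iBET, with every iBET library above every DMSO library. The response was 0.94 ± 0.13 in DMSO and 1.72 ± 0.13 in iBET, and the difference 0.78 (95% interval 0.39 to 1.17) held 0.91, 0.82 and 0.63 in mice A, B and C. The adjusted p was 0.997 in edgeR, 0.241 in DESeq2 and 0.0369 in DESeq2 with mouse as a block.

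Tlr4, the receptor for lipopolysaccharide (chr4:66827584-66930284, plus strand), was at 125, 109 and 117 CPM with Ova and 70.2, 81.2 and 78.3 CPM with IC in DMSO. In iBET its levels were 31.9, 28.6 and 24.5 and 28.5, 28.1 and 27.6 CPM, which overlapped and lay below all DMSO values. The difference of 0.59 (95% interval 0.26 to 0.93) therefore sets a fall in DMSO against a level already low in iBET. Lifr, the leukemia inhibitory factor receptor, and Klhl24, a Kelch-like adaptor of a ubiquitin ligase, were instead higher in iBET in both conditions, with differences of 0.63 (95% interval 0.30 to 0.96) and 0.78 (95% interval 0.34 to 1.21). Susd3, a sushi domain gene, had overlapping Ova levels and a difference of 0.73 (95% interval 0.33 to 1.14). Among the 8 genes, the iBET IC level was above the DMSO IC level without overlap in 4 and below it in 4. These counts too describe genes ranked by the difference and were not taken over all genes.

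**Figure D2:**
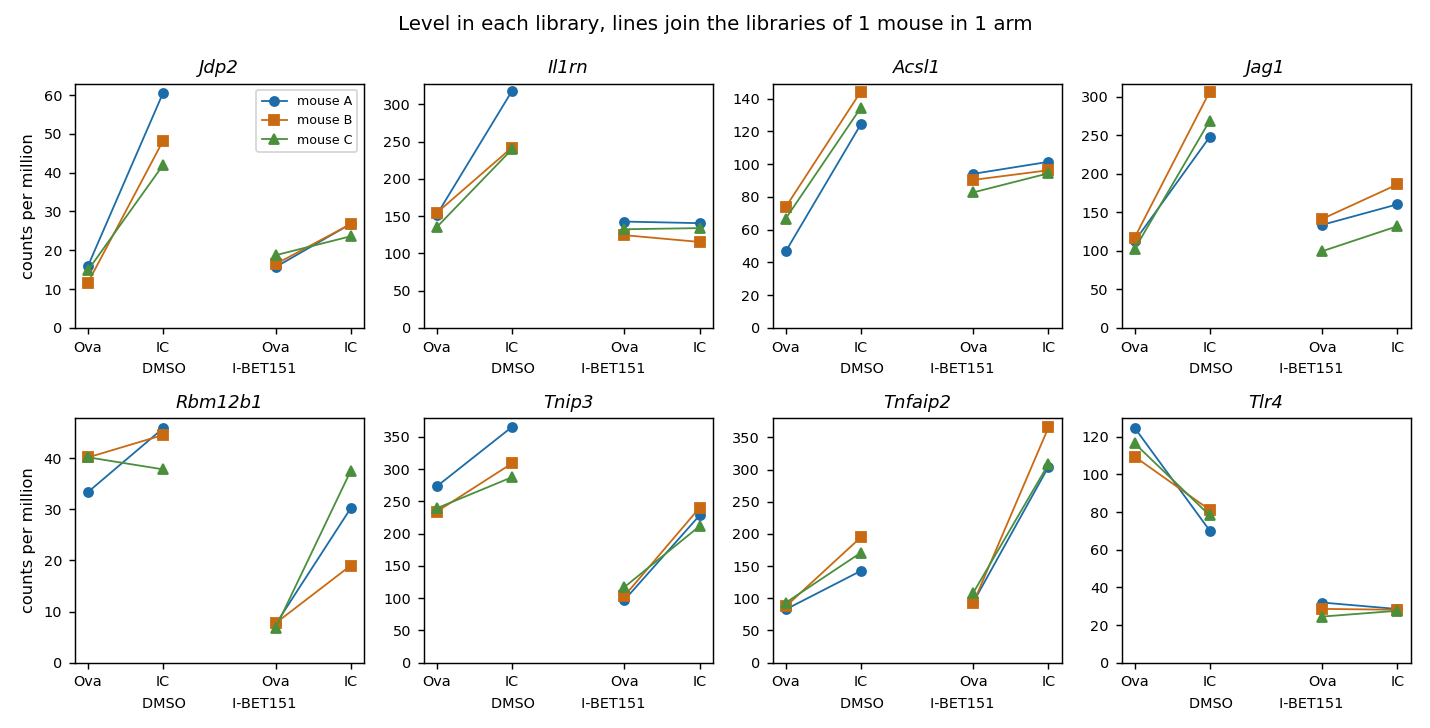
Level in CPM (y axis, from 0) of 8 genes in each of the 12 libraries, with Ova and IC in the DMSO arm on the left and in the iBET (I-BET151) arm on the right of each panel. Lines join the 2 libraries of 1 mouse in 1 arm. In the upper row (Jdp2, Il1rn, Acsl1, Jag1) the lines are steep in DMSO and shallow in iBET, while in the lower row Rbm12b1, Tnip3 and Tnfaip2 are steeper in iBET and Tlr4 declines in DMSO from a higher level.

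The condition of 1 sign in all 3 mice largely fixes the sign of the 16 ranked genes when libraries are left out, so the following values are a description. With the mouse A library of DMSO Ova left out, the 8 negative differences ranged from -1.28 (Jdp2) to -0.58 (Adgrl2) and the 8 positive ones from 0.58 (Tlr4) to 1.92 (Rbm12b1). Over the 15 fits that left out 1 library or 1 mouse, Rbm12b1 was the only gene called, when the mouse B library of iBET IC was left out, where its adjusted edgeR p was 0.0062.

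Besides Jag1, the study had singled out Tnf, Irg1, Cxcl2, Ikbke, Nfkbia and Nfkbie on these libraries. For 5 of these 6 the interval of the difference included 0, and Ikbke was the exception. Irg1 (Acod1, the enzyme that makes itaconate) held 3.08, 5.67 and 8.95 CPM with Ova and 39, 45.8 and 66.9 CPM with IC in DMSO, and 1.62, 0.772 and 1.92 CPM and 13.5, 12.5 and 15.3 CPM in iBET. IC exceeded Ova without overlap in both arms, and the iBET levels were below the DMSO levels in both conditions. The fold change was 2.94 ± 0.31 log2 units in DMSO and 3.24 ± 0.35 in iBET, so the difference was 0.29 with an interval of -0.71 to 1.29. In CPM, the increase with IC was 44.7 ± 11.7 (SD, n = 3 mice) in DMSO and 12.3 ± 0.937 in iBET.

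Tnf, the cytokine gene, was at 38, 47.3 and 53.6 CPM with Ova and 75.1, 104 and 121 CPM with IC in DMSO. In iBET it was at 70.5, 70.1 and 71.3 and 156, 177 and 165 CPM, above the DMSO libraries in each condition, and the difference of fold changes was 0.14 (95% interval -0.34 to 0.63). The neutrophil chemokine Cxcl2 rose in both arms, by 1.94 in DMSO and 2.21 in iBET, with a difference of 0.27 (95% interval -0.39 to 0.93). The NF-kB inhibitor genes Nfkbia and Nfkbie had differences of -0.19 (95% interval -0.61 to 0.23) and -0.0025 (95% interval -0.42 to 0.41). Ikbke, an IkB kinase-related kinase, stood apart with -0.50 (95% interval -0.88 to -0.12, unadjusted p = 0.0139), and its levels were 60.0, 67.6 and 66.1 CPM in DMSO IC and 29.6, 31.2 and 27.2 CPM in iBET IC.

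**Figure D3:**
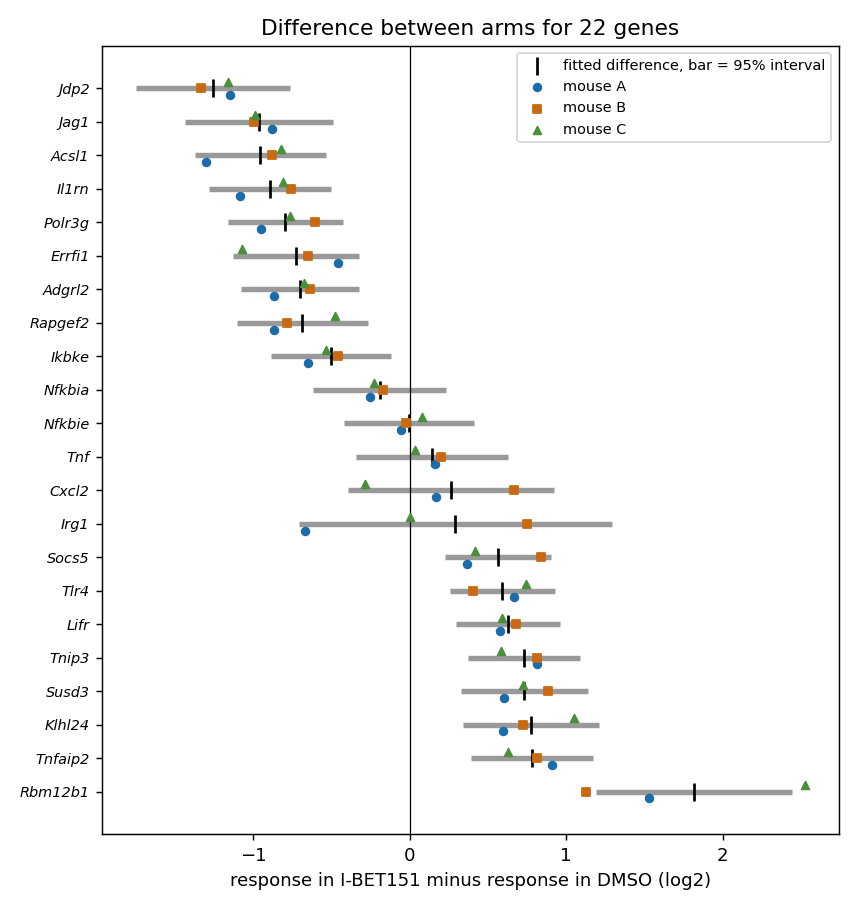
Difference between arms (iBET response minus DMSO response, log2 units) for 22 genes, with the fitted value as a tick, its 95% interval as a grey bar and the values of mice A, B and C as symbols. The 16 genes ranked by p lie on 1 side of 0 in each mouse because the ranking required it. Of the other 6 genes, which were not held to this, Irg1, Cxcl2 and Nfkbie have mice on both sides of 0.

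Functional lists were read in the order of the pathway, from receptors to effectors, each by its counts and median. Lists and members were chosen with earlier results of these data known, so their shares are descriptions and not evidence of enrichment. The values over all genes tested, against which each list stands, were 1.71% called higher and 1.24% lower for the mean response, 1.26% negative and 1.29% positive at an unadjusted p under 0.05 for the difference, and a median difference of -0.00071. In the Fc receptor and proximal signalling list, 2 of 21 genes tested were called higher for the mean response, the C-type lectin receptor Clec4e and the adaptor protease Malt1. The median difference was 0.068 (range -0.29 to 0.56), and no member had an unadjusted p under 0.05 in the edgeR fit without the block. Clec4e had 1.53 ± 0.25 in DMSO and 2.08 ± 0.25 in iBET (difference 0.56, 95% interval -0.19 to 1.31), and its level with IC was 185, 237 and 337 CPM in DMSO and 129, 146 and 186 CPM in iBET. Per mouse its difference was 0.47, 0.65 and 0.51 in A, B and C. With mouse as a block its unadjusted p was 0.0029 in edgeR (adjusted p = 0.9998) and 0.0016 in DESeq2 (adjusted p = 0.586). Of 19 Toll-like receptors and adaptors, 2 were called higher (Tlr2 and Irak2), the median difference was 0.13, and Tlr4 was the 1 member with an unadjusted p under 0.05. Tlr2 had responses of 1.09 ± 0.17 and 1.49 ± 0.17, with a difference of 0.40 (95% interval -0.11 to 0.91).

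The list of NF-kB subunits and inhibitors held the most genes called higher. Of 20 tested, 13 were called higher (against 1.71% of all genes) and none lower for the mean response. In DMSO 8 were called and in iBET 6 (against 1.22% and 0.349% of all genes), and the median response was 0.54 and 0.60 log2 units. The median difference was 0.078, and the 13 called members divided into 6 negative and 7 positive. Nfkb1, which encodes the p105 and p50 subunit, was at 0.36 (95% interval 0.035 to 0.69, unadjusted p = 0.033) and Ikbke at -0.50, the 2 members with an unadjusted p under 0.05. The feedback regulator Tnfaip3 (A20) had responses of 1.34 in DMSO and 1.48 in iBET, and the NF-kB subunit gene Relb 0.83 in DMSO and 0.89 in iBET. Tnip1, a partner of A20, was at -0.25 (95% interval -0.64 to 0.14). The inhibitor gene Nfkbib was at -0.40 (95% interval -0.84 to 0.049).

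Among 23 AP-1, Egr and immediate early factors, 5 were called higher and 1 lower (Nr4a2), with a median difference of -0.016. Jdp2 and Atf3, both basic leucine zipper factors, had unadjusted p under 0.05 in opposite directions. Atf3 was at 123, 130.5 and 104 CPM with Ova and 118, 108 and 124 CPM with IC in DMSO and at 133, 129.7 and 138 and 160.4, 193 and 180.1 CPM in iBET, a difference of 0.44 (95% interval 0.11 to 0.78). The DMSO groups overlapped and the iBET groups did not. Junb had responses of 0.43 in DMSO and 0.41 in iBET. Ier3 and Fosl1 were at 0.42 (95% interval -0.16 to 1.005) and 0.26 (95% interval -0.56 to 1.07), and their levels lay apart between arms, with IC levels of 4.8, 4.18 and 5.81 CPM in DMSO and 44.9, 43.7 and 42.9 CPM in iBET for Ier3 and of 14.9, 13.8 and 11.7 and 3.74, 3 and 1.92 CPM for Fosl1.

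Of 11 cytokines and antagonists tested, 4 were called higher (Tnf, Il1b, Il1rn and Csf1), and the median difference was 0.038 (range -0.89 to 1.12). Il1b, the interleukin-1 beta gene, and Il1rn, its receptor antagonist, had differences of opposite sign. Il1b was low, at 1.94, 1.76 and 1.33 CPM in DMSO IC and 1.33, 1.55 and 1.2 CPM in iBET IC, with an interval of -0.54 to 2.79, so no difference was detectable at this depth. Tnfsf9 (4-1BB ligand) was at 0.90 (95% interval 0.14 to 1.66, unadjusted p = 0.0237), and mouse A went the other way (-0.88, 1.28 and 1.15 in mice A, B and C). The mouse A value rests on 1.03 CPM in its DMSO Ova library, the one with most counts on Rn45s. With that library left out the difference was 1.09.

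Chemokine genes had the widest intervals of the 13 lists, with a median half-width of 1.01 log2 units. Of 16 tested, 7 were called higher, namely Ccl3, Ccl4, Ccl7, Ccl9, Cxcl1, Cxcl2 and Cxcl3, and none had an unadjusted p under 0.05 for the difference. The median was 0.012. Cxcl1 and Cxcl3, chemokines of neutrophils, had the highest and lowest values of the list, 1.03 (95% interval -0.54 to 2.61) and -1.48 (95% interval -3.64 to 0.69). With IC, Cxcl3 was at 2.1, 2.31 and 2.38 CPM in DMSO and 0.587, 0.872 and 0.24 CPM in iBET, and with Ova at or under 0.249 CPM in every library. Its IC groups did not overlap, but the fold changes rest on a few counts in the Ova libraries. Ccl4, a monocyte chemokine, was at 0.23 (95% interval -0.76 to 1.23).

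Signalling feedback genes (17 tested) had a median difference of -0.13, and of the 5 IC-responsive members 4 were negative. By mouse the list median was -0.33 in A, 0.031 in B and -0.0016 in C, so it was low in mouse A alone. Socs3, a suppressor of cytokine signalling, rose in both arms (2.64 ± 0.42 in DMSO, 2.43 ± 0.37 in iBET, difference -0.21, 95% interval -1.42 to 1.002), from a DMSO Ova library at 0 in mouse A. The phosphatase genes Dusp4 and Dusp5 were at -0.13 (95% interval -0.49 to 0.22) and -0.15 (95% interval -1.03 to 0.73). Rgs2, a regulator of G protein signalling, was at 276, 272 and 257 CPM with Ova and 172, 155 and 133 CPM with IC in iBET, without overlap, and at 344, 393 and 339 CPM with Ova and 355, 270.1 and 309 CPM with IC in DMSO, where the groups overlapped. Its difference was -0.60 (95% interval -0.98 to -0.22, unadjusted p = 0.00464), the 1 gene called lower for the mean response that was negative at an unadjusted p under 0.05.

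In the adhesion and Notch list (13 tested, median difference 0.015), Icam1, an adhesion molecule for leukocyte integrins, rose in both arms (1.24 ± 0.14 in DMSO, 1.33 ± 0.14 in iBET). Its difference was 0.095 (95% interval -0.33 to 0.52). The integrin gene Itga5 was at -0.22 (95% interval -0.85 to 0.40). Of 17 immunometabolism genes tested, 9 were called higher (against 1.71% of all genes). At an unadjusted p under 0.05, 3 (Acsl1, Hk2 and Sod2) were negative and none positive (against 1.26% and 1.29%), and the median was -0.087. Hk2, the first enzyme of glycolysis, was at 59.6, 44.3 and 49.5 CPM with Ova and 77.2, 68 and 79.6 CPM with IC in DMSO, and at 44, 42.2 and 45 and 47.4, 44.9 and 44.9 CPM in iBET. It rose in DMSO (edgeR adjusted p = 0.0325), and its difference was -0.51 (95% interval -0.85 to -0.16). Sod2, mitochondrial superoxide dismutase, rose in both arms, by 0.89 and 0.55, with a difference of -0.34 (95% interval -0.60 to -0.086). The arginine transporter gene Slc7a2 was at -0.59 (95% interval -1.23 to 0.056), and Ptgs2, the inducible cyclooxygenase, at 0.24 (95% interval -1.005 to 1.49).

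Among 25 death receptor and apoptosis genes the median was 0.051, with 1 member (Fas) on the negative side and 2 (Tnfaip2 and Bcl2l1) on the positive side at an unadjusted p under 0.05. Birc3, an inhibitor of apoptosis, was at -0.29 (95% interval -0.63 to 0.061). None of 25 interferon-stimulated genes was called for the mean response. Their median difference was -0.10, 19 were negative (against 50.1% of all genes), and no member had an unadjusted p under 0.05, where 2.55% of all genes did. In a list of 25 genes that share gives fewer than 1, so the count of 0 says nothing of the members. By mouse that median was -0.21 in A, 0.0083 in B and -0.048 in C. The lysosome and endocytosis list (25 tested) had a median of 0.028 and no member at that p, and its 1 called gene, Sqstm1 (the autophagy receptor p62), was at -0.037 (95% interval -0.41 to 0.34).

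The list of FoxO-linked and quiescence genes held the most genes called lower. As in the other lists, its members were chosen with earlier results known, which partly sets this count. Of 22 tested, 11 were called lower (against 1.24% of all genes) and none higher for the mean response, with 7 called in DMSO and 1 in iBET (against 1.22% and 0.349% of all genes). The median response was -0.63 in DMSO and -0.34 in iBET, and the median difference of 0.22 was the highest of the 13 lists. Of the 11 called, 8 had a positive difference, and 3 (Klhl24, Fam214a and Rnf144b) had an unadjusted p under 0.05. By mouse the list median was 0.011 in A, 0.11 in B and 0.27 in C. Klhl24 held 60.1, 53.9 and 50.3 CPM with Ova and 19.8, 23.7 and 20.2 CPM with IC in DMSO, and 102, 87.5 and 72.4 and 51.1, 63.6 and 60.6 CPM in iBET, without overlap in either arm. For Rnf144b, a ubiquitin ligase gene, the fitted difference was 0.94, but the mice gave -0.17, 1.58 and 1.23 in mice A, B and C. Tob1, an antiproliferative gene, was at 0.41 (95% interval -0.0071 to 0.83), while Txnip, an inhibitor of thioredoxin, and Arrdc3, an arrestin-domain gene, had responses of -0.90 in DMSO and -1.0001 in iBET and of -0.62 in DMSO and -0.72 in iBET.

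**Figure D4:**
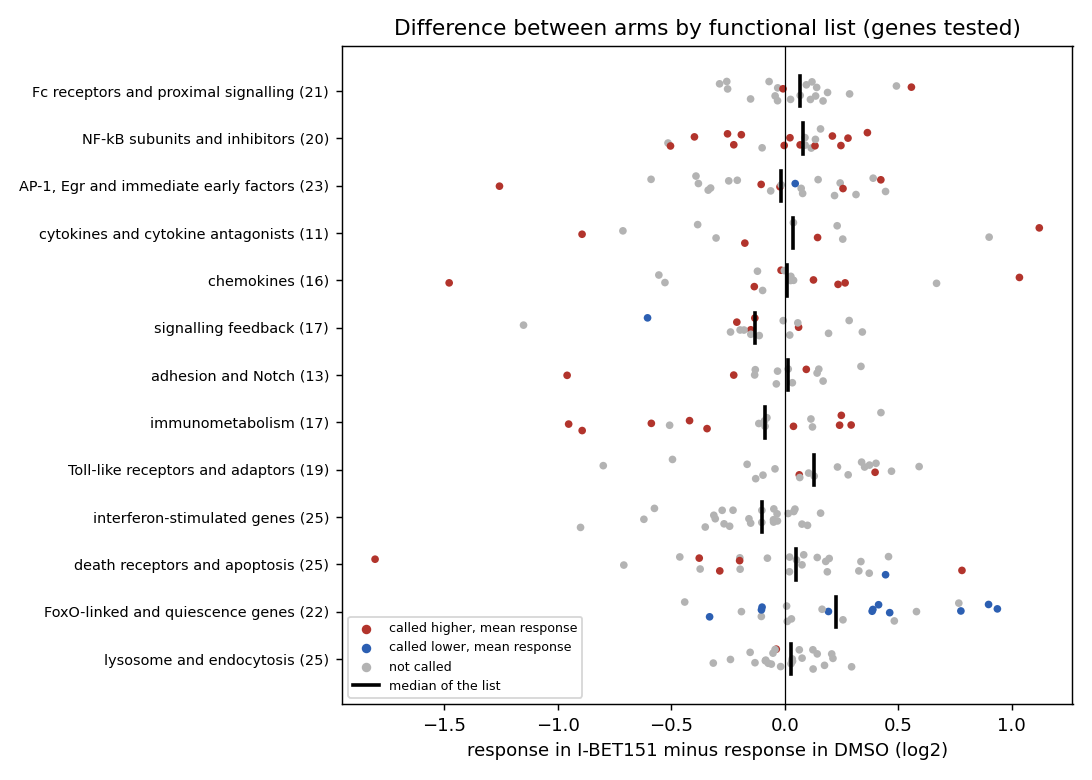
Difference between arms (log2 units, x axis) of the members of 13 functional lists that were tested, whose number stands in brackets. Points are genes, red and blue where the mean response was called higher or lower, and black ticks are list medians, which lie between -0.13 (signalling feedback) and 0.22 (FoxO-linked and quiescence genes).

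As a set, the 338 IC-responsive genes leaned toward a smaller size of response in iBET, while sets called anew without 1 mouse did not all do so. Of the 196 genes called higher, 125 (63.8%) had a negative difference against 50.1% of all genes tested, and their median was -0.072. Of the 142 called lower, 113 (79.6%) had a positive difference, and their median was 0.19. The median response was 0.63 in DMSO and 0.54 in iBET for the first set, and -0.57 and -0.39 for the second. At an unadjusted p under 0.05 there were 14 negative and 6 positive genes in the first set and 1 negative and 18 positive in the second, beside 2.55% of all genes. Choosing by p also favours genes with narrow intervals, which partly sets the counts at that p. The median half-width was 0.41 log2 units in each set and 0.56 over all genes. Genes are not replicates, so these shares carry no p.

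In single mice, the median difference of the genes called higher was -0.094, -0.051 and -0.10 in A, B and C, and that of the genes called lower was 0.16, 0.19 and 0.20. Without mouse A, B or C the medians of these same genes were -0.045, -0.069 and -0.072 (called higher) and 0.21, 0.19 and 0.17 (called lower), an alternative chosen after the data were seen. The genes were called with all 3 mice, so these values are not independent of the choice. Sets called anew differed. Without mouse A, 470 genes were called higher, 177 of them among the 196, with a median of 0.034, and 412 lower, 106 of them among the 142, with a median of -0.12, both of opposite sign to those of the full sets. With only the mouse A library of DMSO Ova left out the medians were -0.074 (199 genes) and 0.22 (159 genes). Without mouse B, 6 genes were called higher (median 0.10) and none lower, and without mouse C 57 higher (0.011) and 21 lower (0.30).

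**Figure D5:**
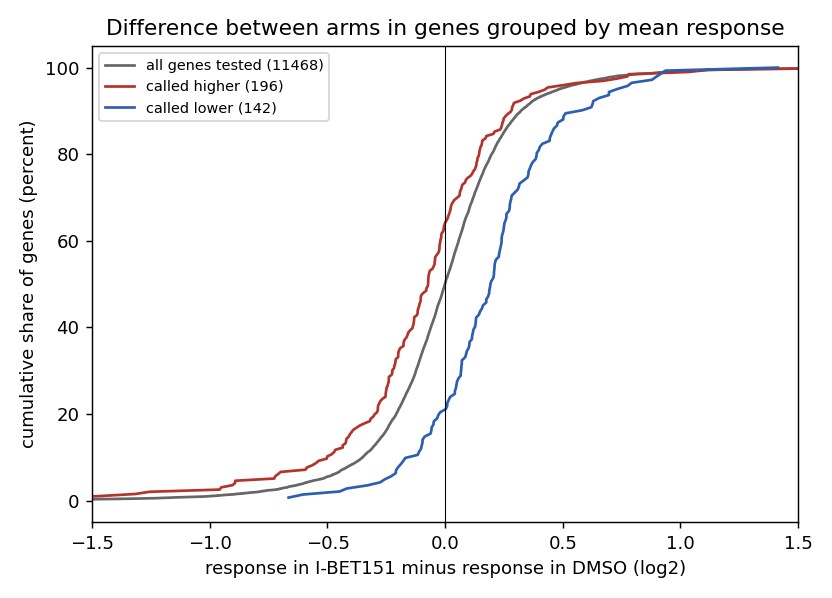
Cumulative share of genes (percent, y axis) by their difference between arms (log2 units, x axis, shown from -1.5 to 1.5) for all 11468 genes tested, the 196 called higher and the 142 called lower for the mean response. The red curve lies left of the grey one around 0 (median -0.072) and the blue curve right of it (median 0.19). Sets called anew without mouse A had medians of 0.034 and -0.12.

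Choosing genes in 2 mice and measuring them in the third separated the choice from the value. The 100 risers with the smallest p for the mean response had a median difference of -0.079, -0.00085 and -0.16 in the mouse left out (A, B and C in turn), with 59, 50 and 60 of 100 negative. For 100 fallers the medians were -0.0024, 0.22 and 0.24, with 50, 69 and 75 positive. The lean was thus absent for risers in mouse B and for fallers in mouse A. When genes were chosen by the difference instead, the 50 most negative by p had medians of -0.077, -0.21 and -0.31 in the mouse left out, with 28, 38 and 36 of 50 negative, and the 50 most positive had 0.16, 0.24 and 0.20, with 35, 37 and 37 of 50 positive. All genes had medians of -0.011, 0.0087 and -0.013 in the same mice. The medians kept the sign of the choice in all 3 mice for both ranked sets, and were nearest to the median of all genes for the negative set in mouse A.

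The correlation of the difference between mice was higher over the IC-responsive genes than over all genes. Over the 11468 genes, Pearson's r of the difference between mice was 0.0035 (A and B), 0.024 (A and C) and 0.12 (B and C). Over the 196 genes called higher it was 0.55, 0.47 and 0.59, and over the 142 called lower 0.20, 0.50 and 0.50. These are descriptions across genes, which are not independent, and the mice share no library, but the sets were chosen on these libraries. The response in DMSO and the response in iBET, which also share no library, had r = 0.42 over all genes, 0.71 over the genes called higher and 0.43 over those called lower.

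A difference of fold changes need not match a difference in molecules, so the responses were also compared in CPM, a choice made after the data were seen. In CPM the increase was smaller in iBET for 118 of the 196 genes called higher, with 100 smaller on both scales, 18 in CPM alone and 25 on the log2 scale alone. Median increases were 17.6 CPM in DMSO and 13.5 CPM in iBET. Of the 142 called lower, 99 declined by fewer CPM in iBET. Tnip3 gained 71.6 ± 22 CPM (SD, n = 3 mice) in DMSO and 121 ± 23 CPM in iBET, higher in iBET on both scales. For other genes the scale set the direction. Irg1 gained less in iBET in CPM and had a positive difference in log2 fold change. Clec4e gained 166 ± 54.8 CPM in DMSO and 118 ± 24.2 CPM in iBET, also opposite in sign to its difference of 0.56 on the log2 scale.

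Promoter windows of RefSeq (build GRCm38.p6, from 250 bases before to 50 after each start) were searched on both strands for the NF-kB consensus motif and for the AP-1 motif TGANTCA. The NF-kB motif stood in 2779 of 32851 windows (8.46%) of all genes, 1169 of 11346 windows (10.3%) of the genes tested, 47 of 203 windows (23.2%) of the genes called higher and 15 of 167 windows (8.98%) of those called lower. Within the genes called higher it was in 28 of 137 windows (20.4%) where the difference was negative and in 19 of 66 windows (28.8%) where it was positive. AP-1 matches stood in 2565 of 32851 windows (7.81%) of all genes, 567 of 11346 windows (5%) of the genes tested, 16 of 203 windows (7.88%) of the genes called higher and 8 of 167 windows (4.79%) of those called lower. Within the genes called higher, the AP-1 share was 8 of 137 windows (5.84%) at a negative and 8 of 66 windows (12.1%) at a positive difference. Windows were found for 159 of the 196 and 117 of the 142 genes, and genes can have several. A match is a description of letters and not a bound site.

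The windows that follow belong to genes on each side of the comparison, with motif matches in capitals, and are written 5′ to 3′ on the gene's strand. Il1rn and Jag1 had negative differences, Tnip3 and Tnfaip2 positive ones, and Nfkbia and Cxcl2 responded in both arms. Il1rn has 3 windows and the one with a match is shown. Jag1 has 1 window and no match of either motif in it. The genes shown are examples and do not represent their side. Among negative genes not shown, Jdp2 has an NF-kB match in 1 of 3 windows and Acsl1 no match in 2. Among positive ones, Susd3 has an NF-kB match in its 1 window and Lifr no match in 2. Irg1 and Icam1, which responded in both arms, have no match of either motif.
Il1rn (chr2:24336610-24336909, plus strand): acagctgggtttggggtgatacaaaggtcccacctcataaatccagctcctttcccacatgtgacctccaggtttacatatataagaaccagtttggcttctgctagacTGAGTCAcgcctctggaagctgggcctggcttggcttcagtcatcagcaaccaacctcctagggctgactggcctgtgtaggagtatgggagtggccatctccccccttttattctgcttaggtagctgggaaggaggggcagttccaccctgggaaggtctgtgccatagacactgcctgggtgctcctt
Jag1 (chr2:137116471-137116770, minus strand): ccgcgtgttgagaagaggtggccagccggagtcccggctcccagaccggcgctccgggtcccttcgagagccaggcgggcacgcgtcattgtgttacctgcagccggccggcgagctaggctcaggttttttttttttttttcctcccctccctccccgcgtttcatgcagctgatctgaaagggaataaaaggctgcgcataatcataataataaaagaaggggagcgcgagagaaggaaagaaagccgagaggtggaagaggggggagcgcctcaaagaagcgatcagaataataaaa
Tnip3 (chr6:65590148-65590447, plus strand): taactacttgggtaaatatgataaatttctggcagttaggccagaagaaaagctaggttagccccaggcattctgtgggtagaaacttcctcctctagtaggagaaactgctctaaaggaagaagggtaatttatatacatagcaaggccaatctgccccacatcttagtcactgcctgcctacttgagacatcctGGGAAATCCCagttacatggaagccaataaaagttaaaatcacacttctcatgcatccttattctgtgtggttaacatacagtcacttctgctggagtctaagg
Tnfaip2 (chr12:111442411-111442710, plus strand): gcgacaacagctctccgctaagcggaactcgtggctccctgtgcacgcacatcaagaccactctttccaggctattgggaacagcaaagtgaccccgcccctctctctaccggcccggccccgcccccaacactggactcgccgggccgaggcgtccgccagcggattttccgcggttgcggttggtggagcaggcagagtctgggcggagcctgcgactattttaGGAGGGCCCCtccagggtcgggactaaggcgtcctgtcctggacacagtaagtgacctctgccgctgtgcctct
Nfkbia (chr12:55492598-55492897, minus strand): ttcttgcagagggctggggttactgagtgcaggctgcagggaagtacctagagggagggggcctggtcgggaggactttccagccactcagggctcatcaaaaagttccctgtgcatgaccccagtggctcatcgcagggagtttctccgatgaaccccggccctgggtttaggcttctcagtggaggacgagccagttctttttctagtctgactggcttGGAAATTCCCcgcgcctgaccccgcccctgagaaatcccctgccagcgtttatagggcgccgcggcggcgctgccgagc
Cxcl2 (chr5:90903649-90903948, plus strand): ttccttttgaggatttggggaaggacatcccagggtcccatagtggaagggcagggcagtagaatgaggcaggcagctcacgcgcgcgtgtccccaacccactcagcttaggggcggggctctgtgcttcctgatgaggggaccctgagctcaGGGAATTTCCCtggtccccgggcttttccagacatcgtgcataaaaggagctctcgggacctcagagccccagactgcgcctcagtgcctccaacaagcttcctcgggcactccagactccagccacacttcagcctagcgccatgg
In Il1rn the capitals mark an AP-1 match that begins 141 bases before the start. In Tnip3, Tnfaip2 and Nfkbia they mark 1 NF-kB match each, which begins 54, 24 and 29 bases before the start, and in Cxcl2 they mark 2 overlapping NF-kB matches.

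Of the 54 genes named by rule, 53 were placed in GENCODE vM21 (Irg1 under its symbol Acod1), and all 53 are protein coding. Opposite-strand annotated genes overlap 20 of them, among them Jdp2, Acsl1, Adgrl2, Errfi1, Rapgef2 and Tnfaip2. The use of strand in counting was not given in the sources used here, so reads from such a pair cannot be told apart if strand was ignored.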

How the data were processed

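RNA from the 12 BMDM libraries was sequenced by the study. Per its methods and the submitters' processing notes, reads were trimmed with Trim Galore, aligned to mm10 with HISAT2 and assigned to genes with featureCounts, and the authors deposited these counts and a normalized signal. The annotation and the use of strand were not given in the sources used here. The deposited signal equalled counts divided by DESeq2 size factors (largest relative gap 4.89e-15).

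A robust quasi-likelihood model of the 4 groups was fitted to the counts in edgeR 4.0.16 (R 4.3.3), after filterByExpr (minimum count 10) and TMM scaling. Contrasts were the response in each arm, their difference and their mean. Tests were two-sided, with Benjamini-Hochberg adjustment across every gene tested. SE is the absolute log2 fold change over the square root of F. CPM uses TMM-scaled library sizes, and the differences per mouse use log2 CPM at prior count 2. The fit was checked on simulated counts for whether median estimates came close to set differences. No mouse effect was simulated, so the check does not show how calls behave in paired libraries.

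Named genes were the 8 with the smallest p for the difference in each direction (mean count at least 50, same sign in 3 mice), 7 the study singled out, up to 4 per functional list that were called for the mean response or had an unadjusted p under 0.05 for the difference, and genes called by another tool. Further list members were named as examples after their values were seen. Members and lists were chosen with earlier results of these data known. Alternatives were DESeq2 1.42.0, limma 3.58.1 (voom, and the signal as log2 with a pseudocount of 1), sva 3.50.0, other scaling and filters, mouse as a block, and omission of libraries and mice.

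The labels give each library's mouse, which pairs the samples. Deviations from group means correlated between libraries of the same mouse at -0.072 to 0.54 (median 0.26, 18 pairs). Main p-values are from the fit without the block.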

Additional observations from a re-analysis of the deposited data

Results flagged for a closer look

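With 3 libraries per group, no group was large enough to be screened for an outlying library. The difference between arms was tested directly by the interaction term, and 4 genes passed an adjusted p of 0.05 in DESeq2 while passing in neither edgeR nor limma voom. For Rbm12b1 the DESeq2 difference was 1.83 log2 units (adjusted p = 0.000235), with a higher fold change in iBET in 3 of 3 mice. Its level was lower in iBET in both conditions, and its reads may be shared with Rbm12b2. Jdp2 was at -1.25 (adjusted p = 0.0112), Il1rn at -0.88 (adjusted p = 0.0358) and Acsl1 at -0.93 (adjusted p = 0.0358), each with a lower fold change in iBET in 3 of 3 mice. With mouse as a block in DESeq2 these 4 remained called, and Jag1 (-0.95, adjusted p = 0.000457), Tnfaip2 (0.78, adjusted p = 0.0369) and D17H6S56E-5 (0.69, adjusted p = 0.04) were called in addition.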

How the results depend on the processing

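Calls of the difference stayed at 0 under DESeq2 size factors, both other filters, 1 surrogate variable, the deposited normalized signal in limma, removal of Rn45s, limma voom, mouse as a replicate block in edgeR and an adjusted p of 0.1, and reached 4 in DESeq2 and 7 with the replicate block in DESeq2. Leaving out a library or mouse gave 0 to 1. Genes at an unadjusted p under 0.05 numbered 524 in voom, 443 with the replicate block, and 108 to 699 when a library or mouse was left out. Called genes in DMSO, in iBET, for the mean response and for a higher mean response, in this order, were 268, 103, 521 and 299 in DESeq2, 266, 243, 926 and 501 in voom, 315, 85, 658 and 352 with the replicate block, 437, 180, 833 and 433 with the block in DESeq2, and 258 (DMSO), 592 (mean) and 338 (higher) at an adjusted p of 0.1. Leaving out a library or mouse gave 0 to 159, 0 to 305, 6 to 882 and 6 to 470. The lowest counts came without mouse B and the highest without mouse A.

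The median difference of genes called higher ran from -0.12 to 0.10 over the fits that left out a library or mouse, positive without any 1 of the mice and negative without any single library. That of genes called lower ran from -0.12 to 0.30, negative only without mouse A, and was 0.17 with 1 surrogate variable, 0.17 with DESeq2, 0.11 with voom, 0.22 without the filter, 0.16 with mouse as a replicate block, 0.14 with the block in DESeq2 and 0.21 without Rn45s. The share of IC-responsive genes with a smaller response in iBET (70.4%) was 64.2% in CPM, 42% without mouse A, 16.7% (6 genes) without mouse B and 56.4% without mouse C. Kept as the genes called with all libraries, the genes called higher had medians of -0.045 to -0.072 and those called lower 0.17 to 0.21 without 1 mouse. The cause was not tested.

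Of the 54 named genes, 43 kept the sign of the difference in all 25 alternatives. The others crossed 0 when a library or mouse was left out, with ranges of Irg1 -0.11 to 0.55, Tnf -0.014 to 0.30, Malt1 -0.10 to 0.069, Fosl1 -0.0089 to 0.65, Ccl4 -0.28 to 0.51, Socs3 -0.57 to 0.058, Dusp5 -0.37 to 0.093, Icam1 -0.0402 to 0.22, Irak2 -0.033 to 0.16, Sqstm1 -0.12 to 0.088 and Nfkbie -0.10 to 0.17. Nfkbie also became positive outside those fits, at 0.0092, 0.0093, 0.0057, 0.0072, 0.0048, 0.0013, 0.0104 and 0.013, and Malt1 at 0.0065, 0.0027 and 0.0099. Depth outside Rn45s limits the DMSO Ova library of mouse A, and with 3 mice the interval of the difference was wider than 1 log2 unit on each side for 2203 genes.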

Other observations

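D17H6S56E-5, which was not placed in the annotation used here, differed between mice more than between groups. Its DMSO levels were 51.4, 64.4 and 147 CPM with Ova and 53.5, 67.7 and 162 CPM with IC in mice A, B and C. Its iBET levels were 41.7, 46.8 and 135 and 73.8, 92.1 and 198 CPM. Mouse C was the highest in every group. The difference between arms was 0.76, 0.90 and 0.41 in mice A, B and C. Its adjusted p in edgeR was 1 without and 0.386 with mouse as a block, and in DESeq2 1 and 0.04.

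Rbm12b2, the paralog of Rbm12b1, stood at 39.5, 45.9 and 47.6 CPM in DMSO Ova and 52.6, 56.4 and 44.1 CPM in DMSO IC. In iBET it stood at 25.4, 29.4 and 28.2 CPM with Ova and 36.5, 35.4 and 44.2 CPM with IC. The iBET Ova group was the lowest of its 4 groups, as for Rbm12b1. It was looked up after the value of Rbm12b1 was seen.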
